A study of Mus musculus with 15 samples.

Results

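The genes described here encode the proteins of the cytosolic ribosome, and they were followed in RNA sequencing libraries of whole mouse cornea. They were chosen by name. The rule takes symbols that start with Rps or Rpl, go on with a number and end there or with a, x or l, and adds Rpsa, Rplp0, Rplp1 and Rplp2. It then asks for at least 10 counts in at least 3 of the 15 libraries. Of 83 symbols with such a name, 80 met the count rule, out of 55357 gene identifiers in all. They comprise 32 small subunit genes, 45 large subunit genes and the 3 genes of the ribosomal stalk. The 3 names that failed were Rpl3l, Rpl6l and Rpl10l, whose highest count in any library was 2 for Rpl3l, 2 for Rpl6l and 0 for Rpl10l. Each of the 80 genes was also among the 15770 genes that entered the tests.

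The libraries fall into 4 groups by Opa1 genotype and age. At 3 months each genotype had 4 libraries. At 6 months OPA1+/+ cornea had 3 and OPA1+/- cornea had 4. Opa1 encodes a dynamin-related GTPase needed for fusing inner membranes of mitochondria and for the shape of their cristae, and OPA1+/- animals carry 1 altered copy. The labels give neither the allele, the strain, the sex nor the number of animals per library. Nothing in them says that replicates came from separate animals. The p-values measure the spread between these libraries, and how much of it is technical was not tested. Within each group it includes Rps13-ps1, a pseudogene described below, with at most 1 count in some libraries and at least 206 in others.

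Cytosolic ribosomes are built from ribosomal RNA and a fixed set of proteins of the small subunit, which reads the messenger RNA, and the large subunit, which joins amino acids. The stalk proteins P0, P1 and P2 recruit the translation factors. Messenger RNAs of ribosomal proteins usually begin with a C followed by a run of pyrimidines, the terminal oligopyrimidine or TOP element, through which mTORC1 and Larp1 control how much they are translated. In corneal epithelium, a tissue that is renewed throughout life, ribosomes sustain the constant production of keratins and crystallin enzymes. RNA sequencing measures the level of these messenger RNAs and not their translation.

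The TOP element is the sequence feature the family is known for, and it was looked up at annotated start sites because the name rule did not use it. Of the 80 genes, 59 were in a RefSeq promoter table (build GRCm38.p6), whose windows run from 250 bases before the start to 50 after it. At an annotated start, a C followed by at least 4 C or T was present for 14 of 59 (23.7%), against 3.01% of the 27025 genes in the table. The runs were 5 to 13 bases long. Below are 30-base windows of 5 genes, 10 bases before the start and 20 from it on, written in the direction of transcription, with the C and its pyrimidine run in capitals. They show the longest run, Rpl15, and the starts of Rpl35, Rps10, Rps6 and Rpl28, which recur below or stand for each subunit.
Rpl15, chr14:18270967-18270996, minus strand: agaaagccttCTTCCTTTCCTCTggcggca
Rpl35, chr2:39005112-39005141, minus strand: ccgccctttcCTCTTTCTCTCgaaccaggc
Rps10, chr17:27635225-27635254, minus strand: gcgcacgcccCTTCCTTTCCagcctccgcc
Rps6, chr4:86857348-86857377, minus strand: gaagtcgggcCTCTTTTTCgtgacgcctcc
Rpl28, chr7:4792955-4792984, plus strand: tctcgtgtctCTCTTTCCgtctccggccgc
Rpl15 and Rpl28 belong to the large subunit, as does Rpl35, whereas Rps6 and Rps10 belong to the small one. Over the whole 300-base windows and on either strand, the letters CCGGAAG, the core of sites for ETS factors, were found in 25 of 59 genes (42.4%) and in 9.93% of all genes of the table. The letters AAGATGG, the core of sites for YY1, were found in 9 of 59 genes (15.3%) and in 7.28% of all genes. Both motifs contain AAG, so that a match of the first can overlap a match of the second. A match describes the letters and is not evidence of binding.

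Libraries held 11673240 to 18194946 counts. Opa1 was at 45.5 to 57.8 CPM (counts scaled to a total of 1e+06 per library) in OPA1+/- and at 65.2 to 70.3 CPM in OPA1+/+ cornea at 3 months, and the groups did not overlap at 6 months either, at 47.0 to 49.1 and 66.9 to 73.4 CPM. All 6 markers of corneal epithelium were detected in every group, with Krt12, the keratin of differentiated corneal epithelium, at 26106 to 32909 CPM. Each library held Xist (1433 to 1970 CPM before composition scaling) and transcripts of 4 Y-linked genes (126 to 172 CPM summed), so each contained RNA of both sexes. Each thus drew on more than 1 animal. Replicate 4 of OPA1+/- at 3 months had 112 CPM of 9 summed lens markers and 147 CPM of 6 summed retina markers, and replicate 1 of OPA1+/+ at 6 months had 141 CPM of the retina markers. The other 13 libraries were at 4.75 to 31.6 CPM for lens and 10.1 to 22.3 CPM for retina, and the lens gene Lim2 was at 0 in all 15. By edgeR 0 ribosomal protein genes passed in each of the 7 comparisons, with and without those 2 libraries. Calls over all genes did change, with 15945 genes tested without them and 15770 with them. For genotype the calls went from 1 to 2 at 3 months, 51 to 14 at 6 months and 125 to 19 averaged over ages. For age they went from 8 to 138 in OPA1+/+, 13 to 6 in OPA1+/- and 65 to 250 averaged over genotypes. For the interaction they went from 0 to 9.

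The 80 genes together took 1.54% to 1.68% of the counts of a library. Reads reported as mapping to several places were not counted, and how much they would add to these shares was not tested. The mean share was 1.61% ± 0.059 (SD, n = 4) in OPA1+/+ and 1.64% ± 0.037 (SD, n = 4) in OPA1+/- at 3 months, and 1.65% ± 0.011 (SD, n = 3) and 1.62% ± 0.038 (SD, n = 4) at 6 months. The 4 groups overlapped, and the means lay within 1 SD of each other at 3 months. In bulk tissue, fewer cells of a type and less RNA per cell cannot be told apart. Small subunit genes held 0.657% of counts, large subunit genes 0.848% and the 3 stalk genes 0.125%, averaged over libraries.

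Levels per length were expressed as RPKM, that is CPM per kilobase of exon, with the deposited gene length, which joins the exons of every transcript of a gene. The median of the 80 genes was 101 RPKM (quartiles 48.0 and 150.5), against 4.21 RPKM for the other tested genes, and 66 of the 80 were among the 1000 genes with the highest RPKM. Rplp1, a stalk protein, was the highest at 925 RPKM, ahead of Rps15 of the small subunit at 487 and Rpl4 of the large subunit at 419. Rplp0, the base of the stalk, followed at 332 RPKM. Also among the 10 highest were Rpl8 (291 RPKM), Rpl32 (273), Rpl23a (257), Rps29 (247) and Rpl17 (244). Over the 15 libraries Rps15 ran from 288 to 338 CPM and Rpl4 from 791 to 885 CPM, and in both the 4 groups overlapped. Rplp1 ran from 437 to 514 CPM. Its OPA1+/+ libraries at 6 months (462.6 to 478.2 CPM) lay above those at 3 months (436.9 to 461.4 CPM) and above OPA1+/- at 6 months (445.3 to 456.3 CPM), and the other pairs of groups overlapped.

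At the other end, 5 genes lay under 10 RPKM. The large subunit gene Rpl24 was lowest at 0.693 RPKM, followed by Rpl39l (1.78 RPKM), a close relative of Rpl39 known from testis, Rps10 of the small subunit (1.85 RPKM), Rpl32l (4.22 RPKM) and Rpl13a (7.35 RPKM). In CPM, Rpl24 stood at 0.436 to 1.08, Rps10 at 3.07 to 5.80 and Rpl13a at 14.2 to 17.7 over the 15 libraries. These genes are low in every library and in every group. The authors' counting command had no option for reads that map to several places, and of the 75-base stretches in the main annotated transcript, the length of a read, 80.9% of Rpl24, 90.1% of Rps10 and 56.3% of Rpl13a also occurred in transcripts of another gene. How many reads of these genes were left uncounted was not tested.

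Sequence shared with other genes was common in the family. Of the 80 genes, 77 had at least 1 such 75-base stretch in 1 of 691 other genes, 658 of which carry a pseudogene (-ps) or placeholder (Gm) name. The median share of a gene's stretches was 48.0%, and 36 genes shared more than 50%. Rps27 shared 98.5% of its stretches and still stood at 198 RPKM, whereas Rpl39l shared 0% and stood at 1.78 RPKM. Across the 80 genes, which are not independent replicates, Spearman's rho between RPKM and shared percentage was -0.099, so that the shared percentage did not order the levels. Pseudogenes with a ribosomal -ps name, 300 in all, took 0.0018% to 0.0092% of a library's counts. Copies with a Gm name are not in that figure. Gm8730, a processed pseudogene of Rplp0, alone stood at 93.9 CPM in replicate 1 of OPA1+/+ at 3 months. It took more counts there than all -ps names together, which took 0.0021%.

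**Figure D1:**
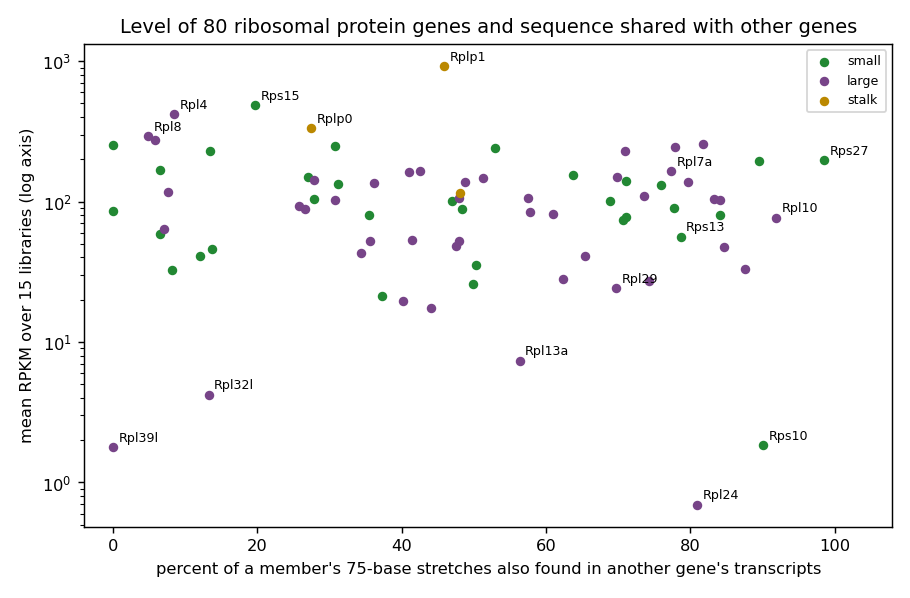
Mean RPKM over 15 libraries (log axis) of the 80 ribosomal protein genes against the percentage of their 75-base stretches that also occur in another gene's transcripts, with points coloured by subunit and some of them named. Levels near 100 RPKM occur over the whole range of shared sequence, Rpl24 and Rps10 are low with 80.9% and 90.1% shared, and Rpl39l is low with 0%.

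Most of the family varied little between libraries. The SD of log2 CPM within groups had a median of 0.0643 over the 71 genes with a mean of at least 50 CPM, against 0.074 over all 4096 tested genes at that level. Rpl32, a large subunit gene, had the smallest SD, 0.0185, and ran from 252 to 272 CPM. The highest library was less than 1.5 times the lowest for 72 of the 80 genes. The 8 others were Rpl29, Rplp0, Rps13 and Rpl31, described below, and the 4 genes under 10 CPM (Rpl24, Rps10, Rpl32l and Rpl39l). Relative to each gene's own mean, the median gene deviated in a library by -0.077 to 0.060 on the log2 scale. Both extremes were OPA1+/+ libraries at 3 months, replicate 3 at the low end with 10 of 80 genes above their mean, and replicate 4 at the high end with 54. The 1027 tested genes shorter than 1000 bases that are not in the family had their lowest and highest median deviations in the same 2 libraries, at -0.035 and 0.039. The part of transcript length in these deviations was not tested.

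**Figure D2:**
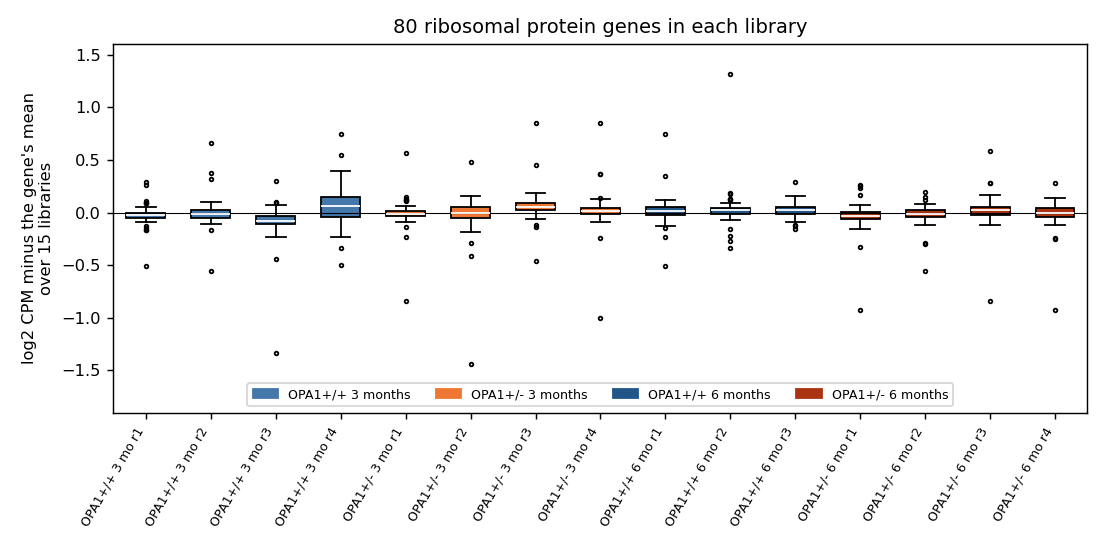
Deviation of log2 CPM from each gene's mean over 15 libraries, for 80 ribosomal protein genes in each library. Boxes span the quartiles, white lines are medians, whiskers reach 1.5 interquartile ranges and dots are single genes, with colours by group. Medians lie between about -0.077 and 0.060, and the most distant dots include Rpl29.

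The comparison of genotypes at 3 months asks whether loss of 1 Opa1 copy goes with a change in ribosomal protein messages in the younger cornea. No gene of the family passed (edgeR quasi-likelihood test, Benjamini-Hochberg adjusted p under 0.05), and over all genes 0.00634% did. That share is 1 gene, Opa1 itself, lower in OPA1+/- (edgeR adjusted p = 0.0193). For Opa1 the adjusted p ran from 9.09e-06 to 0.141 over 25 alternatives and was under 0.05 in 18. DESeq2 and limma voom also called 0 of the 80. At an unadjusted p under 0.05 there were 10 of 80 (12.5%) by edgeR, 7 by DESeq2 and 7 by voom, against 9.03% of all genes by edgeR. Of all 15770 genes, DESeq2 had 1135 and voom 1742 at such a p. By edgeR the 10 became 1 without replicate 3 of OPA1+/- (1124 of 15747 genes in all), 4 without replicate 4 of OPA1+/-, 3 without the 2 libraries with lens or retina transcripts and 2 with these 2 groups alone, so the share lay above or below that of all genes depending on the libraries. The fold change was above 0 for 58 genes and below 0 for 22, with a median of 0.031 on the log2 scale, beside 0.0030 for all genes. That median was 0.0061 without replicate 3 of OPA1+/-, and 0.019, 0.020 and 0.0082 without replicates 1, 2 and 3 of OPA1+/+. The 95% interval of the fold change lay within 1.2-fold in either direction for 70 genes and within 1.5-fold for 75.

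The smallest p at 3 months belonged to Rpl27, a large subunit gene. It stood at 38.4, 41.0, 37.3 and 39.2 CPM in OPA1+/+ and at 46.8, 40.9, 45.4 and 45.8 CPM in OPA1+/- libraries. Replicate 2 of OPA1+/- lay within the OPA1+/+ range, at 40.9 against 41.0 CPM, and the other 3 lay above it. The log2 fold change was 0.20 ± 0.055 (SE), with an edgeR adjusted p of 0.266, and the adjusted p ran from 0.151 to 0.541 over the alternatives. At 6 months Rpl27 was at 42.2 to 45.9 CPM in OPA1+/+ and 44.5 to 48.0 CPM in OPA1+/- cornea, which overlapped.

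Other genes among the 5 smallest p-values at 3 months were Rpl19 (log2 fold change 0.097 ± 0.041 SE), Rps25 (0.11 ± 0.049) and Rps6 (-0.11 ± 0.051), with edgeR adjusted p-values of 0.486 to 0.519. Rps6, the substrate of S6 kinase, was at 124.8, 129.7, 137.0 and 152.6 CPM in OPA1+/+ and at 122.8 to 128.3 CPM in OPA1+/- libraries. Replicate 4 of OPA1+/+ was the highest, and the lowest OPA1+/+ library lay within the OPA1+/- range.

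At 6 months 0 of the 80 genes passed by edgeR, DESeq2 or voom, and 0.323% of all genes did by edgeR (0.159% higher and 0.165% lower). Those 51 genes became 2 without replicate 2 of OPA1+/+ at 6 months and 84 without replicate 4 of OPA1+/+ at 3 months, the lowest and highest with 1 library left out. The unadjusted p was under 0.05 for 0 genes by edgeR (10.2% of all genes), 0 by DESeq2 and 2 by voom. Of all 15770 genes it was so for 1397 by DESeq2 and 2084 by voom. Fold changes were above 0 for 22 genes and below 0 for 58, with a median of -0.021 on the log2 scale, beside 0.0024 for all genes. Intervals lay within 1.2-fold for 71 genes and within 1.5-fold for 76. The small subunit genes (7 above and 25 below 0, median -0.017) and the large subunit and stalk genes (15 above and 33 below, median -0.028) leaned the same way. The smallest p was that of Rpl10a, a large subunit gene, at 82.9 to 88.1 CPM in OPA1+/+ and 75.3 to 84.7 CPM in OPA1+/- libraries (log2 fold change -0.11 ± 0.057 SE, edgeR adjusted p = 0.533). The groups overlapped. Rpl35 (-0.12 ± 0.065), Rpl23 (-0.084 ± 0.047), Rpl29 (-1.08 ± 0.61) and Rpl32 (-0.060 ± 0.036) came next, with edgeR adjusted p-values of 0.570 to 0.601. Rpl32 was at 262.4 to 267.9 CPM in OPA1+/+ and 251.5 to 257.2 CPM in OPA1+/- libraries, without overlap. The 7 summed markers of proliferating cells, all detected, were at 558 to 630 CPM in OPA1+/+ and 430 to 469 CPM in OPA1+/- cornea at 6 months, and their part in these values was not tested.

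Averaged over ages, 0 of 80 genes passed by edgeR, DESeq2 or voom, against 0.793% of all genes by edgeR (0.399% higher and 0.393% lower). Those 125 genes became 16 without replicate 2 of OPA1+/+ at 6 months and 237 without replicate 4 of OPA1+/+ at 3 months, again the lowest and highest. Without adjustment 3 genes (3.75%) had a p under 0.05 by edgeR, 3 by DESeq2 and 2 by voom, as did 12.4% of all genes by edgeR. The other 2 tools had 1653 (DESeq2) and 2387 (voom) of all 15770 genes. The fold change was above 0 for 39 genes and below 0 for 41. For 64 genes the interval lay within 1.1-fold, and for 72 within 1.2-fold. Rpl27 was again first (0.14 ± 0.041 SE, edgeR adjusted p = 0.118), followed by Rpl35 (-0.12 ± 0.044, 0.236), Rpl26 (0.069 ± 0.031, 0.361), Rps4l (0.13 ± 0.066, 0.444) and Rpl19 (0.052 ± 0.031, 0.530). Rpl35 was at 62.6 to 78.9 CPM in the 7 OPA1+/+ and 59.8 to 68.5 CPM in the 8 OPA1+/- libraries, with much overlap. The median absolute log2 fold change was 0.026 for the family and 0.067 for all genes. These 2 values were not matched for level. A mean of at least 50 CPM was reached by 71 of the 80 genes and by 4096 of the 15770 tested genes.

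**Figure D3:**
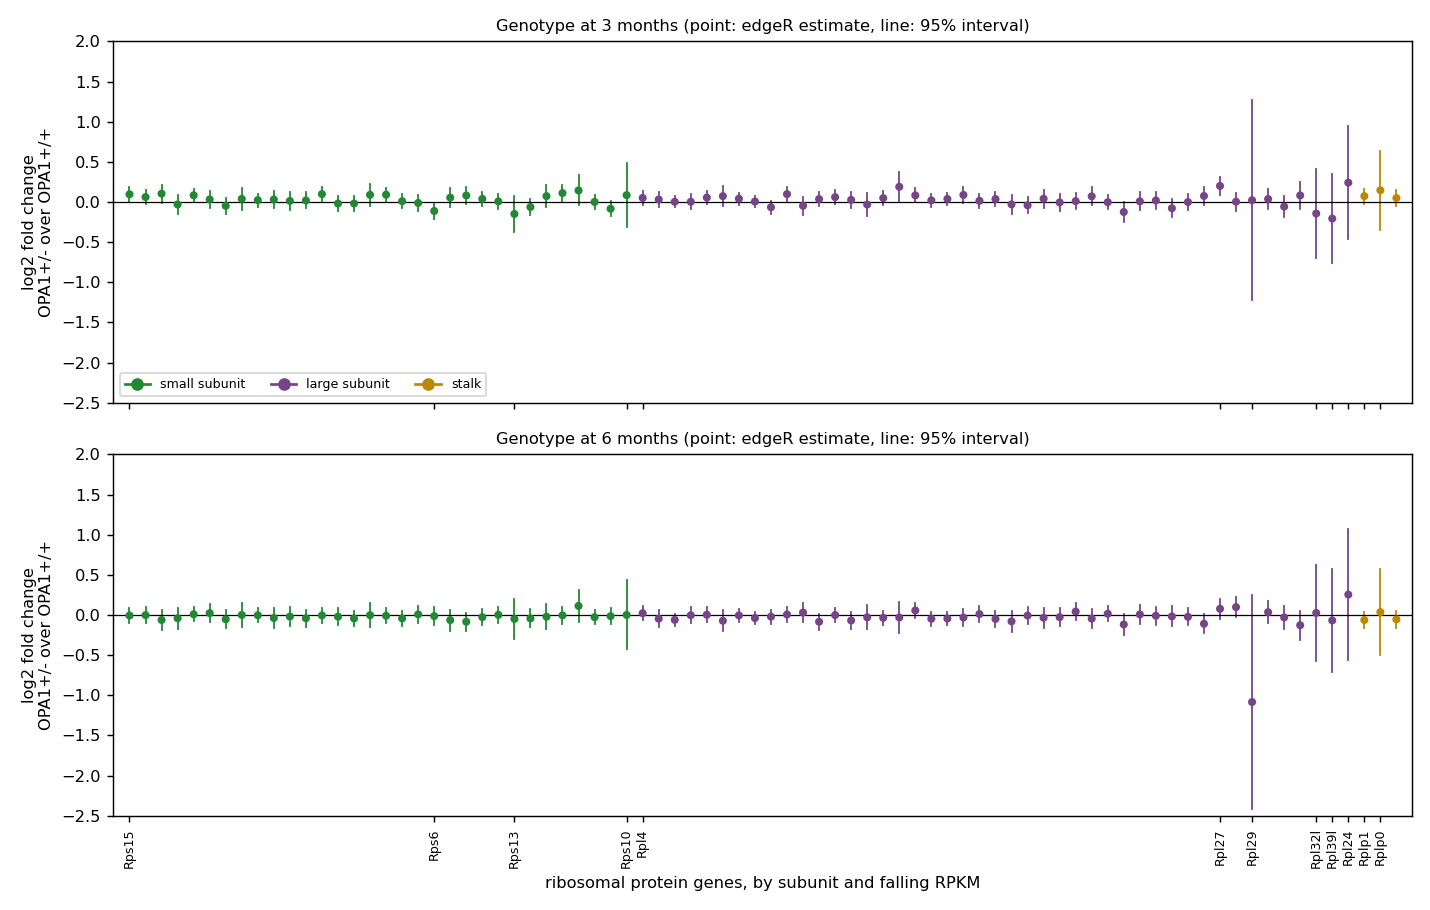
Log2 fold change of OPA1+/- over OPA1+/+ cornea at 3 months (top) and 6 months (bottom) for each of 80 ribosomal protein genes, ordered within subunit by RPKM, with 95% intervals from edgeR and names for 12 of them. Points gather near 0 with short intervals, and the wide intervals belong to Rpl29, Rplp0 and the genes at the low end of expression.

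The comparisons of ages ask whether the family changed from 3 to 6 months. In OPA1+/+ cornea 0 of 80 genes passed by edgeR, DESeq2 or voom, against 0.0507% of all genes by edgeR (0.0317% higher and 0.019% lower). The unadjusted p was under 0.05 for 6 genes (7.5%) by edgeR, 4 by DESeq2 and 4 by voom, and 10.2% of all genes by edgeR. DESeq2 had 1341 and voom 1765 of all 15770 genes at such a p. The fold change was above 0 for 60 genes, with a median of 0.033 on the log2 scale that fell to 0.0098 without replicate 3 of OPA1+/+ at 3 months and rose to 0.051 without replicate 4. In OPA1+/- cornea 0 of 80 passed by the 3 tools, against 0.0824% of all genes by edgeR (0.019% higher and 0.0634% lower). Without adjustment a p under 0.05 was found for 0 genes by edgeR, 1 by DESeq2 and 1 by voom, and 9.05% of all genes by edgeR. Among all 15770 genes it was found for 1130 by DESeq2 and 1812 by voom. There the fold change was below 0 for 53 genes, with a median of -0.030, which became -0.0085 without replicate 3 of OPA1+/- at 3 months and -0.020 without replicate 1 of OPA1+/- at 6 months. Between the same 2 groups, the 6 summed stromal keratocyte markers went from 1592 to 1885 CPM at 3 months to 1154 to 1476 CPM at 6 months, and the 6 corneal epithelium markers from 66400 to 71491 CPM to 64333 to 66302 CPM, neither with overlap. In OPA1+/+ cornea both sums overlapped between ages, at 1330 to 1855 and 1153 to 1497 CPM for keratocytes and 61786 to 72347 and 63052 to 64197 CPM for epithelium. All 12 markers were detected in each group, and their part in the age values was not tested. The age comparisons share their libraries with the genotype comparisons, so these directions are not separate evidence.

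Averaged over genotypes, edgeR and voom called 0 of 80 genes for age, and DESeq2 called 1, Rpl39. By edgeR 0.412% of all genes passed (0.146% higher and 0.266% lower). Of all 15770 genes DESeq2 called 240 and voom 120. At an unadjusted p under 0.05 there were 4 genes (5%) by edgeR, 4 by DESeq2 and 6 by voom, and 11.9% of all genes by edgeR. All-gene counts at such a p were 1557 by DESeq2 and 2089 by voom. Rpl39 is the very small protein at the tunnel through which the new chain leaves the large subunit. It stood at 161.0, 164.2, 151.1 and 160.2 CPM in OPA1+/+ and at 162.8, 170.5, 161.6 and 163.1 CPM in OPA1+/- libraries at 3 months. At 6 months it stood at 173.5, 172.1 and 184.1 CPM in OPA1+/+ and at 166.4, 174.2, 176.0 and 172.6 CPM in OPA1+/- libraries. In OPA1+/+ all 3 older libraries lay above the 4 younger ones, and in OPA1+/- 1 older library, at 166.4, lay under the highest younger one, at 170.5. The log2 fold change was 0.11 ± 0.030 (SE) with an edgeR adjusted p of 0.108. By DESeq2 it was 0.11 with an adjusted p of 0.0309, and over all alternatives the adjusted p ran from 0.0309 to 0.303.

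Rpl17, another protein of the exit tunnel, had an age difference of 0.095 ± 0.030 (SE) on the log2 scale, with an edgeR adjusted p of 0.186. It was at 293 to 333 CPM in the 8 libraries of 3 months and at 324 to 351 CPM in the 7 of 6 months. Rpl41, whose product is a short peptide, had the opposite sign, -0.13 ± 0.049 (adjusted p = 0.297), from 147.8 to 185.6 CPM at 3 months to 132.2 to 159.6 CPM at 6 months, with overlap. Rpl27 (0.096 ± 0.041) and Rpl30 (0.092 ± 0.044) completed the 5 smallest p-values. Within OPA1+/+ cornea the 5 smallest p-values belonged to Rpl39 (0.15 ± 0.043, edgeR adjusted p = 0.197), Rpl17, Rpl27, Rpl10a and Rps25, all above 0. Within OPA1+/- cornea they belonged to Rpl41 (-0.12 ± 0.066, 0.604), Rpl32, Rpl22, Rps28 and Rpl17, with Rpl22 and Rpl17 above 0 and the others below.

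The interaction asks whether the genotype difference was not the same at both ages. By edgeR it was called for 0 of 80 genes and for 0% of all genes, and DESeq2 and voom also called 0 of the 80. At an unadjusted p under 0.05 there were 2 genes (2.5%) by edgeR, 2 by DESeq2 and 3 by voom, against 6.91% of all genes by edgeR. DESeq2 had 881 and voom 1381 of all 15770 genes. The interaction was below 0 for 62 genes, with a median of -0.048 on the log2 scale, beside -0.0023 for all genes. The median was -0.025 without replicate 3 of OPA1+/+ at 3 months, -0.029 without replicate 3 of OPA1+/- at 3 months and -0.031 without replicate 1 of OPA1+/- at 6 months. Rpl10a was first (-0.18 ± 0.077 SE, edgeR adjusted p = 0.654), at a mean of 77.8 CPM in OPA1+/+ and 82.0 CPM in OPA1+/- cornea at 3 months and of 85.2 and 79.0 CPM at 6 months. Rps28 (-0.16 ± 0.074), Rplp1 (-0.13 ± 0.065), Rps29 (-0.16 ± 0.080) and Rpl23 (-0.12 ± 0.064) followed. For the interaction, intervals within 1.2-fold were reached by 58 genes, fewer than in any other comparison, so its precision was the lowest.

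Among genes with a mean of at least 10 CPM, the 5 with the largest SD of log2 CPM within groups were Rpl29 (0.879), Rplp0 (0.327), Rps13 (0.163), Rps4l (0.141) and Rpl31 (0.138). The median over the 76 genes at that level was 0.065. Rpl31, a large subunit gene, was at 128.5 CPM in replicate 4 of OPA1+/+ at 3 months and at 176.5 to 202.1 CPM in the other 14 libraries. Rps4l, a relative of the small subunit gene Rps4x, ran from 26.4 to 37.1 CPM with no library apart from the rest. For Rpl29, Rplp0 and Rps4l every pair of groups overlapped.

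Rplp0 lies on chromosome 5 (GRCm39 chr5:115697526-115701786, plus strand). It was at 378.6, 673.6, 575.0 and 484.3 CPM in OPA1+/+ and at 459.4, 591.7, 587.3 and 697.6 CPM in OPA1+/- libraries at 3 months. At 6 months it was at 487.4, 462.3 and 659.6 CPM in OPA1+/+ and at 643.5, 366.7, 532.4 and 657.2 CPM in OPA1+/- libraries. Each group thus spanned low and high libraries, and the genotype difference at 3 months was 0.15 ± 0.22 (SE) on the log2 scale, with a 95% interval of -0.35 to 0.64. Levels of 3 processed pseudogenes that carry its sequence ran the other way over the 15 libraries. They were Gm8730 on chromosome 8 at 19.9 to 93.9 CPM (Pearson r = -0.968, permutation p = 1e-05, the smallest that 100000 permutations give, adjusted 0.00012, Spearman rho = -0.904, p = 1e-05, adjusted 0.00024), Gm9625 on chromosome 13 at 6.41 to 26.4 CPM (r = -0.943, p = 1e-05, adjusted 0.00012, rho = -0.879, p = 4e-05, adjusted 0.00032) and Gm14165 on chromosome 2 at 0.938 to 5.07 CPM (r = -0.951, p = 2e-05, adjusted 0.00016, rho = -0.886, p = 3e-05, adjusted 0.00032). Without the 2 libraries farthest from the median, r was -0.947, -0.937 and -0.946.

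The 60 coding bases with the most differences show how alike Rplp0 and Gm8730 are over most of the length of a read. The sequences come from GENCODE release 21 transcripts (GRCm38) and cover coding positions 388 to 447, counted from 1 at the A of the start codon, with differing bases in capitals.
Rplp0: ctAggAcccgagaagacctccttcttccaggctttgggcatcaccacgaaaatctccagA
Gm8730: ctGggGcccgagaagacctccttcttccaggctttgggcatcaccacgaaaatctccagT
The 3 differences are A390G, A393G and A447T. Over all 951 coding bases the copy differs at 12 (98.7% identity), and Gm9625 differs at 24 (97.5% identity). Rplp0 and its 5 near copies summed ran from 487.6 to 734.2 CPM, and the copies were 4.04% to 24.8% of that sum. The SD of log2 CPM within groups was 0.327 for Rplp0 alone and 0.197 for the sum, which is still above the 0.064 of the family at 50 CPM or more. The libraries with the most copy reads, replicate 2 of OPA1+/- at 6 months (24.8%) and replicate 1 of OPA1+/+ at 3 months (24.7%), were also the 2 with the lowest sums.

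Rps13, on chromosome 7 (GRCm39 chr7:115930740-115933430), and Rps13-ps1, a processed pseudogene on chromosome 8 (GRCm39 chr8:87774317-87774854), showed a similar opposition. Rps13-ps1 had at most 1 count in 8 libraries and 206 to 710 counts in the other 7, so no correlation over all libraries is given for this pair. The 7 libraries were 1 of 4 OPA1+/+ and 2 of 4 OPA1+/- at 3 months, and 1 of 3 OPA1+/+ and 3 of 4 OPA1+/- at 6 months. The highest values of the copy, 55.6 and 39.1 CPM, fell in replicate 3 of OPA1+/- at 3 months and replicate 3 of OPA1+/- at 6 months, where Rps13 stood at 109.6 and 141.6 CPM. In the 8 libraries without the copy, Rps13 was at 148.0 to 172.4 CPM. In the 7 with it, Rps13 was at 109.6 to 153.5 CPM. Of these, the values 148.2, 149.6, 151.1 and 153.5 CPM lay within the range without the copy. The sum of both was 148.0 to 180.8 CPM in the 15 libraries, with an SD within groups of 0.046, against 0.163 for Rps13 alone. The copy differs from the 453 coding bases of Rps13 at 2 positions, T411C and A429G (99.6% identity). Coding positions 370 to 429 hold both, again with differing bases in capitals.
Rps13: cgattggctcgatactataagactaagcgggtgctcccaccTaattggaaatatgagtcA
Rps13-ps1: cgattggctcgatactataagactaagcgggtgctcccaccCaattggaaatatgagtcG
Every 75-base stretch of the Rps13 coding sequence that ends before the first of these positions also reads on the copy. The genotype difference in Rps13 at 3 months was -0.15 ± 0.11 (SE), with an edgeR adjusted p of 0.725.

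**Figure D4:**
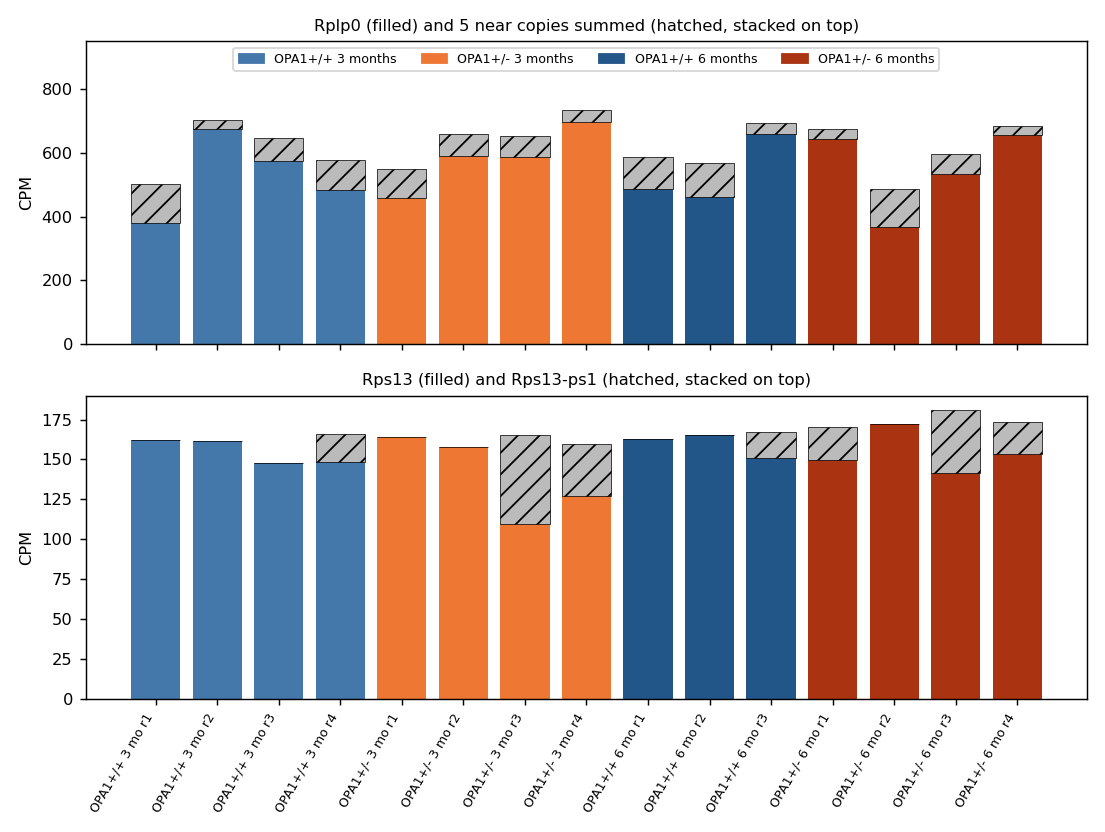
CPM in each library of Rplp0 with its 5 near copies summed (top) and of Rps13 with Rps13-ps1 (bottom), with the gene in the colour of its group and the copy hatched on top. Tall hatched parts stand over short filled bars, and the Rps13 stacks are more even than the filled bars alone.

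In all, 24 pairs of a ribosomal protein gene and a gene elsewhere that shares a 75-base stretch and has a mean of at least 1 CPM were compared, with Benjamini-Hochberg adjustment over the 24. Leaving aside Rps13 with its copy, 5 of the other 23 passed by both r and rho, and each had a negative r. Besides the 3 pairs of Rplp0 these were Rps7 with Gm6472 on the X chromosome (r = -0.795, permutation p = 0.00042, adjusted 0.0020, rho = -0.814, p = 0.00043, adjusted 0.0021) and Rpl15 with Gm8420 on chromosome 1 (r = -0.712, permutation p = 0.0045, adjusted 0.018, rho = -0.818, p = 0.00039, adjusted 0.0021). Without the 2 farthest libraries r was -0.812 and -0.689. Adding a copy's reads lowered the SD within groups from 0.108 to 0.087 for Rps7 and from 0.076 to 0.052 for Rpl15. A sum of levels that run against each other tends to vary less, here as for Rplp0 and Rps13. These SDs are therefore not separate evidence. Gm6472 shares 56.2% of the 75-base stretches of Rps7, and Gm8420 only 13 stretches (1.79%) of Rpl15. None of the 23 passed with a positive r. Gm11942 on chromosome 4, which shares sequence with the stalk gene Rplp1, was at 0.073 to 0.313 CPM in 3 libraries and at 13.8 to 60.2 CPM in the other 12. With the counts of the sharing genes added to their ribosomal protein genes, an alternative chosen after seeing the data, edgeR again called 0 of 80 in each of the 7 comparisons.

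Rpl29, a large subunit protein that mice can live without, was the most variable of the family. It lies on chromosome 9 (GRCm39 chr9:106306653-106308767, plus strand). It was at 24.6, 36.7, 9.13 and 33.9 CPM in OPA1+/+ and at 12.9, 8.495, 42.0 and 41.9 CPM in OPA1+/- libraries at 3 months. At 6 months it was at 39.1, 58.1 and 23.8 CPM in OPA1+/+ and at 12.2, 25.7, 12.9 and 25.6 CPM in OPA1+/- libraries. Groups overlapped at both ages, and the highest library had 6.84 times the level of the lowest. The genotype difference at 6 months was -1.08 ± 0.61 (SE) with a 95% interval of -2.42 to 0.25, the widest of the family. No gene that shares a 75-base stretch with Rpl29 reached a mean of 1 CPM. The labels give no strain, litter or pooling of animals for the libraries, so what the spread of Rpl29, Rplp0 and Rps13-ps1 within groups goes with among the animals was not tested.

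Levels of Rpl29 were also set beside those of its neighbours on the chromosome. Neighbours within 1000000 bases with a mean of at least 1 CPM were compared for the 5 most variable genes, 99 relations in all, adjusted together. Of 26 neighbours of Rpl29, 5 (19.2%) passed by r and by rho, 3 with a positive and 2 with a negative r, and Col6a4 passed by rho alone (r = -0.681, adjusted 0.051, rho = -0.771, adjusted 0.024). Among all 14382 genes at that level, 0.542% had an absolute r as large as the smallest of the 5, 0.726. Abhd14b, a hydrolase gene 15891 bases away, followed Rpl29 (r = 0.91, permutation p = 1e-05, the smallest that 100000 permutations give, adjusted 0.00049, rho = 0.943, p = 1e-05, adjusted 0.00099). Parp3, a DNA repair gene 38754 bases away, ran against it (r = -0.892, permutation p = 1e-05, adjusted 0.00049, rho = -0.882, p = 7e-05, adjusted 0.0035). Without the 2 libraries farthest from the median, r was 0.913 and -0.85, and with group means removed it was 0.905 and -0.889. Rpl29 left a gap between 5 libraries at 8.495 to 12.9 CPM and 10 at 23.8 to 58.1 CPM. Within those 10, r was 0.963 for Abhd14b (permutation p = 6e-05, rho = 0.927, p = 0.00028) and -0.801 for Parp3 (permutation p = 0.0064, rho = -0.697, p = 0.030), both unadjusted.

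The other 3 neighbours of Rpl29 that passed were Cacna2d2 (r = -0.855, rho = -0.8, adjusted permutation p = 0.0036), Rad54l2 (r = 0.761, rho = 0.757, 0.014) and Abhd14a (r = 0.726, rho = 0.821, 0.038). Over 14382 tested genes the 10 with the largest absolute r to Rpl29 over the 15 libraries included 4 on chromosome 9, Abhd14b, Parp3, Acpp and Cacna2d2, where 5.7% of these genes lie. For Rplp0, 6 of 35 neighbours (17.1%) passed by r and 3 of these by rho as well, while 0.327% of all 14382 genes reached the smallest absolute r of the 6, 0.687. Gcn1l1 at 1527 bases passed by both (r = -0.75, rho = -0.721, adjusted permutation p = 0.028 and 0.044), as did Unc119b and Mlec, whereas Pxn, Trpv4 and Coq5 passed by r alone, with adjusted p-values for rho of 0.072, 0.076 and 0.076. No neighbour passed for Rps13, Rps4l or Rpl31.

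**Figure D5:**
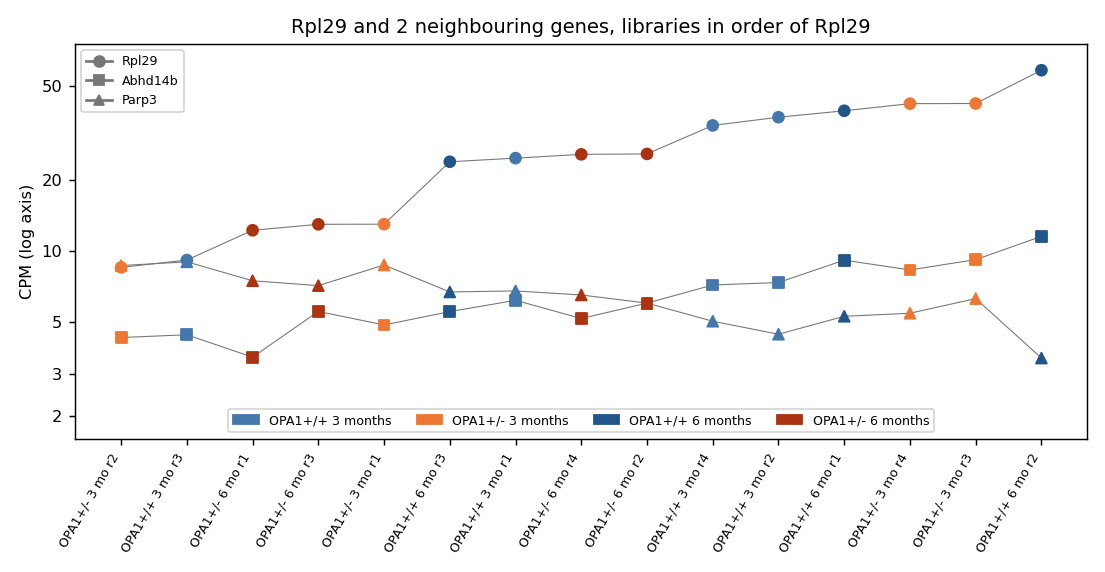
CPM (log axis) of Rpl29, Abhd14b and Parp3 in each library, with libraries ordered by Rpl29 and coloured by group. From left to right Rpl29 goes from 8.495 to 58.1 CPM, Abhd14b rises and Parp3 falls, and the 4 groups are mixed along the order.

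Several of these proteins have a second gene with a related product, and the levels of the pairs were far apart. Rps27 was at 198 RPKM and its relative Rps27l, known as a p53 target, at 40.9 RPKM. Rpl22 was at 64.3 and Rpl22l1 at 11.3 RPKM, Rpl7 at 161 and Rpl7l1 at 15.6 RPKM, and Rpl36a at 47.4 and Rpl36al at 1.83 RPKM. Rpl39 was at 117 and Rpl39l at 1.78 RPKM. Rpl3 was at 104 RPKM and Rpl10 at 76.8 RPKM, while Rpl3l, known from striated muscle, and Rpl10l, known from male germ cells, did not meet the count rule. None of the related genes that were tested passed in a comparison by edgeR. Over the 15 libraries Rps27l was at 29.7 to 36.4 CPM and Rpl22l1 at 17.4 to 27.2 CPM, and in both the 4 groups overlapped. Rpl22 was at 165.1 to 199.5 CPM, and its OPA1+/- libraries at 6 months (188.4 to 199.5 CPM) lay above those at 3 months (180.6 to 185.5 CPM).

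The name rule leaves out some ribosomal proteins, and a list of 7 such genes, which includes the relatives Rpl22l1, Rpl7l1 and Rpl36al, was followed. Fau, which is made as a fusion with a ubiquitin-like sequence, stood at 91.6 RPKM, and Rack1, a scaffold on the small subunit, at 110 RPKM. Rps3a1, at 141 RPKM, ran from 73.2 to 176.8 CPM, a wider range than most of the family. Of these 7, 0 passed by edgeR in the 7 comparisons, and 1, Rpl7l1 in the genotype comparison averaged over ages (0.080 ± 0.036 SE), had an unadjusted p under 0.05.

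Genes that build ribosomes or control their messages were described from lists. Of 42 ribosome biogenesis genes, 1 passed in the genotype comparison averaged over ages, where 0.793% of all genes did, and 0 in the others. It was Rrp9, a protein of the U3 particle that processes ribosomal RNA, at 10.4 to 12.5 CPM in OPA1+/+ and 12.7 to 15.9 CPM in OPA1+/- libraries at 3 months and at 9.95 to 12.4 and 14.9 to 15.1 CPM at 6 months. The groups overlapped at neither age, and the log2 fold change was 0.34 ± 0.069 (SE, edgeR adjusted p = 0.0276). The adjusted p ran from 0.00553 to 0.118 over 24 alternatives. It missed the threshold without replicate 1 of OPA1+/- at 3 months (0.0641), replicate 1 (0.0883) or 2 (0.0831) of OPA1+/+ at 6 months, or replicate 1 (0.0624) or 3 (0.0662) of OPA1+/- at 6 months, and without the 2 libraries with lens or retina transcripts (0.118). On chromosome 9, Rrp9 overlaps Parp3 and lies 44395 bases from Rpl29, among the neighbours described above. Its r with Rpl29 was -0.371 (adjusted permutation p = 0.45, rho = -0.311, adjusted 0.54). The r was -0.645 without the 2 farthest libraries and -0.094 with group means removed. The part of this location in the Rrp9 values was not tested. Of the 42, 32 had a fold change above 0 averaged over ages and 10 below, with a median of 0.057 beside 0.0028 for all genes. An unadjusted p under 0.05 was found for 12 of the 42, a larger share than the 12.4% of all genes. At 6 months 10 of the 42 had such a p, beside 10.2% of all genes, with 34 above and 8 below 0. At 3 months 3 of the 42 had one, beside 9.03% of all genes, with 28 above and 14 below 0. No test over the list was made. Of 8 host genes of small nucleolar RNAs, which guide the modification of ribosomal RNA, 1 passed in the genotype comparison averaged over ages. It was Snhg1, at 15.02 to 17.3 CPM in OPA1+/+ and 18.4 to 20.1 CPM in OPA1+/- libraries at 3 months and at 15.6 to 17.3 and 18.5 to 22.1 CPM at 6 months. Its log2 fold change was 0.27 ± 0.057 (SE, edgeR adjusted p = 0.0312), with a range of 0.0122 to 0.118 over 24 alternatives. The call was lost without replicate 2 of OPA1+/+ (0.074) or replicate 1 (0.0834) or 2 (0.0654) of OPA1+/- at 3 months, without replicate 1 (0.0902) or 2 (0.10) of OPA1+/+ or replicate 3 (0.0887) or 4 (0.0558) of OPA1+/- at 6 months, and without the 2 libraries with lens or retina transcripts (0.118). In that comparison 8 of 8 host genes had values above 0 (median 0.12).

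In the same comparison, 0 of 16 translation factors and other TOP messages passed (median -0.0084, 7 above and 9 below 0), and 0 of 20 genes of mTORC1 and TOP control (median 0.015). Of 14 genes of the RNA polymerase I machinery, 11 were tested and 0 passed (median 0.019). Of 78 mitochondrial ribosomal protein genes, 77 were tested and 0 passed, with 47 above and 30 below 0 and a median of 0.019. None of these 4 lists had a gene past the threshold in the other 6 comparisons by edgeR. At an unadjusted p under 0.05 the averaged genotype comparison had 0 of 16, 3 of 20, 1 of 11 and 4 of 77 tested genes of the 4 lists, against 12.4% of all genes.

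Finally, the 5 tested genes outside the family whose log2 CPM over the 15 libraries had the highest Pearson r with the family's mean deviation were AC124502.1 (0.867), the matrix protein gene Fbln2 (0.855), Gm7785 (0.853), the zinc transporter gene Slc39a3 (0.847) and Gm38077 (0.839). Their mean levels were 0.56, 10.75, 1.4, 28.45 and 5.34 CPM, so that AC124502.1 and Gm7785 rest on few counts. These r values describe 15 libraries that share their scaling, and they were picked as the highest among all tested genes. Among genes at 50 CPM or more, the median Pearson r between pairs of ribosomal protein genes was 0.222.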

How the data were processed

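The authors deposited whole-number read counts per gene for 15 libraries of mouse cornea. Per the labels' protocols, total RNA was depleted of ribosomal RNA and sequenced from strand-specific libraries as single reads of 75 bases on a NextSeq 500. Per the file headers, the counter was featureCounts 2.0.1, which took exons by gene identifier with strand setting 2, GENCODE mouse release 28 (GRCm39) and no multi-mapping option set. Genome mm10 and DESeq2 appear in the submitters' processing notes. No aligner is named (not given in the sources used here). Coordinates of genes are those of the files, read as GRCm39. Sequences come from other tables on GRCm38 and their coordinates are not mixed with those of the files. Symbols matched 52081 of 55357 identifiers (94.1%), and identifiers without one held 1.07% to 1.87% of counts.

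The genes, lists and naming rule were chosen with earlier results of these data known. The named genes are the 10 highest and 5 lowest by RPKM, the 5 with the smallest p in each comparison, the 5 with the largest SD within groups at 10 CPM or more, related gene pairs, list genes past the threshold and the 5 genes most like the family's mean. Genes flagged by a single library, and the near copies and neighbours, were named after their values were seen.

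One edgeR 4.0.16 quasi-likelihood model (R 4.3.3, TMM factors, filterByExpr, robust, 1 mean per group) was fitted to 15770 genes in 15 libraries, with 11 residual degrees of freedom. Benjamini-Hochberg adjustment ran over the 15770 genes, and an adjusted p under 0.05 counted as passing. Fold changes are OPA1+/- over OPA1+/+ and 6 over 3 months. The SE is the absolute fold change over the square root of F. CPM are TMM-scaled unless said otherwise. Logs of CPM use an edgeR prior count of 2 for SDs, library deviations and r with or within the family. They use a pseudocount of 0.1 CPM for near copies and their sums, neighbours and figures. Correlations were tested with 100000 permutations. The 75-base stretches were compared between transcripts of GENCODE release 21, and copies were aligned with Biopython. Alternatives were DESeq2 size factors, TMM without the family, library totals, DESeq2 1.42.0 Wald test, limma 3.58.1 voom with sample weights, no filter, a replicate block, the 2 groups compared alone and each library left out. Near copies added and 2 libraries left out were chosen after seeing the data. The procedure was tested on simulated counts. Protein sequences were not used here, and some genes that the naming rule takes are not reported here.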

Additional observations from a re-analysis of the deposited data

Results flagged for a closer look

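Dixon's test at the 95% level was applied to the named genes and 2 sums in each group of 4 libraries, 120 groups in all, and 7 had a library apart from the other 3. Chance gives about 1 in 20 such groups. Rpl31 had 128.537 CPM in replicate 4 of OPA1+/+ at 3 months, against 179.7 to 181.5 CPM in the others, and the same library was the one apart for Rpl7, at 476.497 CPM against 432.1 to 438.6 CPM. In OPA1+/- at 3 months, Rpl32 was at 271.221 CPM in replicate 3, above 263.8 to 264.7 CPM, Rpl39 at 170.506 CPM in replicate 2, above 161.6 to 163.1 CPM, Rpl32l at 0.768 CPM in replicate 4, under 1.793 to 1.88 CPM, and Rpl23 at 239.459 CPM in replicate 2, under 256.0 to 257.4 CPM. In OPA1+/- at 6 months, Rpl35 was at 63.488 CPM in replicate 1, above 59.8 to 60.3 CPM.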

How the results depend on the processing

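By edgeR no gene of the family passed in any of the 7 comparisons under any of the scalings, without the filter, with near copies added, without the 2 libraries with lens or retina transcripts, or with any 1 library left out, and voom called none. DESeq2 called 1 gene in 1 comparison, age averaged over genotypes, Rpl39 (log2 fold change 0.1087, adjusted p = 0.0309). In that comparison it called 240 of all 15770 genes. The cause was not tested. Over all genes, calls per comparison ran from 0 to 125 by edgeR, 20 to 314 by DESeq2, 0 to 224 by voom and 19 to 256 without the filter. Without the 2 libraries with lens or retina transcripts they ran from 2 to 250 by edgeR. With the replicate number as a block edgeR called 0 ribosomal protein genes and 0 to 90 genes in all. Deviations of the 7 same-numbered pairs of libraries, of the 2 genotypes at the same age, correlated at -0.139 to 0.052. Pairs across ages were not compared. Whether same-numbered libraries share a litter, day or batch cannot be told from these values. With the block, Rrp9 and Snhg1 had adjusted p-values of 0.053 and 0.0541 for genotype averaged over ages. With 1 library left out, all-gene calls by edgeR ran from 0 to 19 for genotype at 3 months, 2 to 84 at 6 months and 16 to 237 averaged over ages, 0 to 169 for age in OPA1+/+, 1 to 24 in OPA1+/-, 18 to 230 averaged over genotypes and 0 to 10 for the interaction. In fits of 2 groups alone, 79 of the 80 genes were tested at 6 months and in OPA1+/- with age. With mitochondrially encoded genes taken out of the total, the family's share of counts was 1.688% in OPA1+/- at 3 months, 1.698% in OPA1+/+ at 6 months and 1.663% in OPA1+/- at 6 months. Leaving out 1 library moved the family's median log2 fold change for genotype averaged over ages between -0.0132 (without replicate 3 of OPA1+/+ at 3 months) and 0.0065 (without replicate 4), and that for age averaged over genotypes between -0.0091 and 0.0122 without the same 2 libraries. At these depths genes under 10 CPM had intervals beyond 1.5-fold in at least 1 comparison.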
